A study of Mus musculus with 12 samples.

Results

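The gene expression state of mouse osteoblasts that received only solvent was described from the 4 DMSO arrays of a series of 12 arrays. These arrays were chosen by their group label alone, and no array of the cells given the histone deacetylase inhibitor SAHA enters the signals, ranks and calls given below. Of 19057 genes with at least 1 probe that carries a single gene symbol, 8577 were detected on all 4 arrays, 701 on 1 to 3 arrays and 9779 on 0 of 4. Detected means here that at least 1 probe of the gene had a detection p-value under 0.01, which compares the probe with the negative control beads of the same array.

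The cells were MC3T3 sc4, a subclone, and so 1 clone, of a pre-osteoblast line from mouse calvaria. They were grown with 10% fetal bovine serum, and differentiation was driven by ascorbic acid at 50 µg/ml together with beta glycerol phosphate at 4 mM. On day 4 the control cells were given DMSO, the solvent of SAHA, were treated with collagenase for 40 min before harvest, and 200 ng of total RNA was labelled for a mouse Illumina BeadChip. The labels do not give the time spent in DMSO, name no genetic change, and do not say whether the 4 arrays came from separate cultures, so the spread between them may be technical. In such bulk samples, fewer cells of a type and less RNA per cell cannot be told apart.

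Osteoblasts build bone in steps. Transcription factors such as Runx2 and Sp7 commit a mesenchymal precursor, the committed cell secretes a matrix rich in type I collagen, and matrix vesicles and phosphatases then load that matrix with mineral. Ascorbic acid is needed for the hydroxylation of collagen, and beta glycerol phosphate supplies phosphate. Hormones, BMPs, Wnts and FGFs reach these cells through receptors at the surface or in the nucleus, and chromatin enzymes set which of the genes can be read.

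Each array held 45281 probes, of which 15610 to 16065 were detected. The signal of the dimmest detected probe lay between 129.8 and 140.1 on the 4 arrays, and the median signal of all probes lay between 94.8 and 102.1. After background correction and quantile normalization, log2 signals of any pair of arrays correlated at 0.9951 to 0.9968 across the 8577 detected genes alone, as a description of probes that share both arrays. On the same scale the median SD of these genes over the 4 arrays was 0.097. Ranks below order the deposited linear signals, averaged over the 4 arrays, of the brightest probe of each gene. Probes differ in how well they bind, so a rank orders probe signals and not transcript amounts.

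The shares against which the gene lists are read are 45.0% of all genes measured for detection on all 4 arrays and 51.3% for detection on none. Matrix genes were detected in 109 of 143 cases (76.2%), lineage genes in 33 of 45 (73.3%) and chromatin genes in 134 of 166 (80.7%). Receptor genes stood at 105 of 222 (47.3%) and signalling genes at 81 of 192 (42.2%), both close to the share of all genes. Markers of other cell types stood at 23 of 124 (18.5%). Genes with more probes have more chances of a call, and the share detected rose from 33.5% of genes with 1 probe to 71.8% of genes with 4 or more. Over genes with 1 probe alone the order of these groups was the same, with 72.6% of 62 matrix genes, 77.0% of 61 chromatin genes, 54.2% of 24 lineage genes, 39.8% of 83 receptor genes, 34 of 100 signalling genes and 14.3% of 70 markers of other cell types detected. The reference lists of ribosomal and housekeeping genes held 26 detected genes of 30, and Rpl6 and Sdha, which every cell uses, were on 0 of 4. A call of 0 of 4 thus says that no probe of the gene rose above background, and does not show that the transcript was missing.

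**Figure D1:**
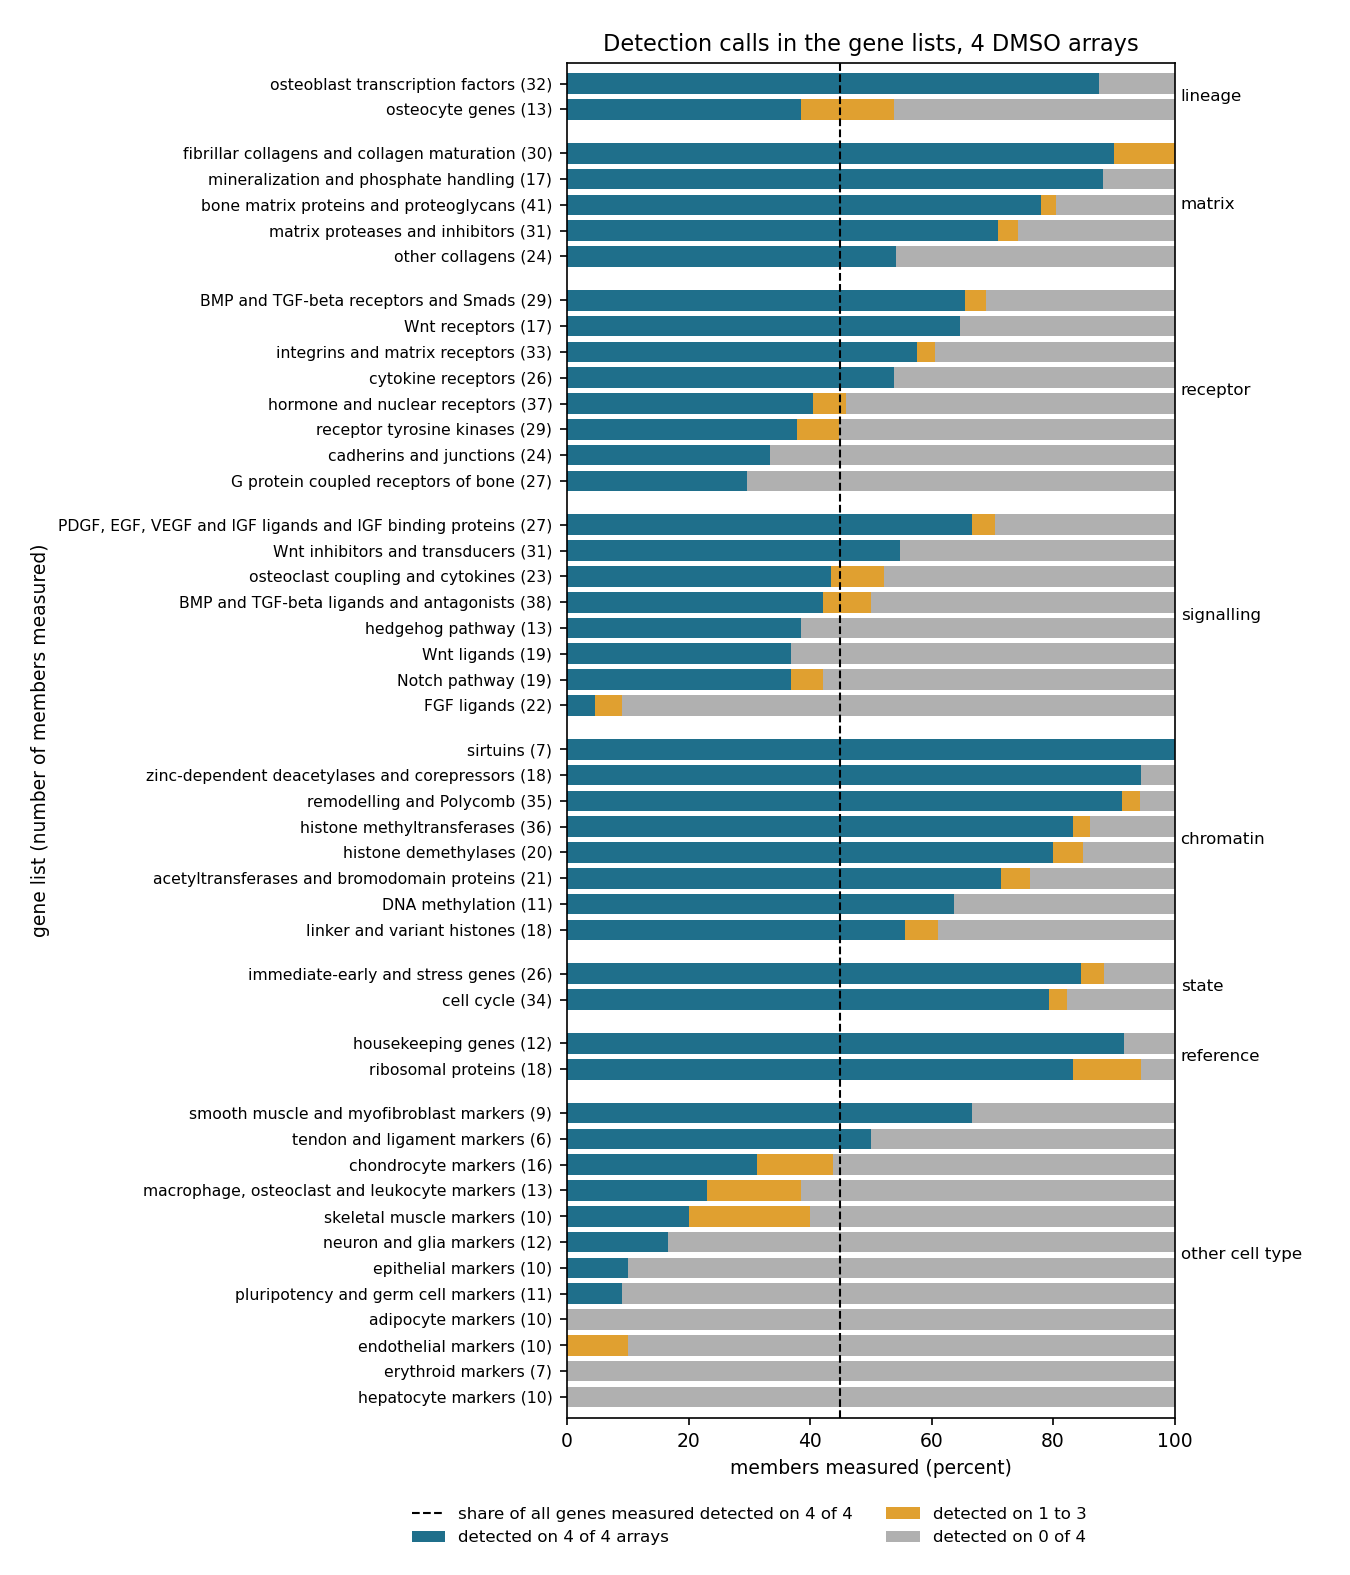
Share of the measured members of each of 47 gene lists (horizontal axis, percent) that were detected on 4 of 4, on 1 to 3 or on 0 of 4 DMSO arrays, with lists grouped by role on the vertical axis and the number measured in brackets. The dashed line marks the 45.0% of all genes measured that were detected on all 4 arrays; chromatin lists lie to its right, and lists of adipocyte, endothelial, erythroid and hepatocyte markers have no member detected on all 4.

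The highest ranks were taken by cytoskeletal, ribosomal and matrix genes. Tuba1b, an alpha tubulin, ranked 1 with signals of 51070, 51052, 46376 and 42343 on arrays 1 to 4 (mean 47710 ± 4205, SD, n = 4). The ribosomal protein genes Rplp1 and Rps12 followed, then Fth1, the heavy chain of the iron store ferritin, and at rank 5 Sparc, which encodes the bone matrix protein osteonectin. Sparc gave 52513, 48825, 38016 and 42611 (mean 45491 ± 6445). Ranks 6 to 12 were held by Eef1a1 (translation elongation), Tpm1 (tropomyosin), Serpinh1 (the collagen chaperone HSP47), Atp5b (mitochondrial ATP synthase), Acta2 (smooth muscle alpha actin), Rpl37 and Actb (beta actin). The remaining genes of the first 20 were Rps2, Rps24, Rps29, Ppia, Tubb5, Rpl35, Rpl10a and Rps19, the last with a mean of 41020 ± 3591.

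The order inside this group was not resolved. All 19 neighbouring pairs of the first 20 genes overlapped in their array values, and 0 of these pairs kept their order on all 4 arrays. In each of the first 20 genes other than Serpinh1, arrays 1 and 2 were both brighter than arrays 3 and 4. Genes further down did not all share that split, and Sp7, Atf4 and Cbfb, described below, were highest on array 3, which also had the highest median signal. The genes at ranks 1 to 250 carried 26.4% of the summed gene signal, and any pair of arrays shared 230 to 237 of their own 250 brightest genes.

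**Figure D2:**
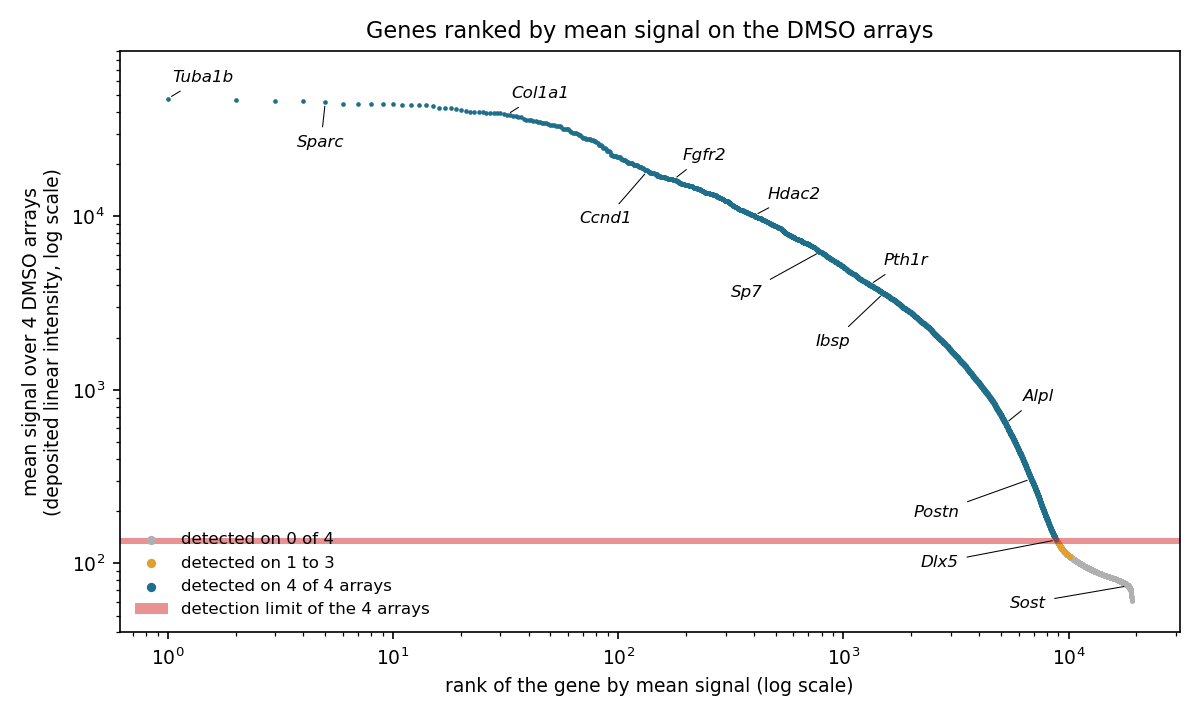
Mean deposited signal over the 4 DMSO arrays (vertical axis, linear intensity on a log scale) against the rank of the gene (horizontal axis, log scale), 1 point per gene, coloured by the number of arrays on which the gene was detected. The red band is the range of the detection limits of the 4 arrays, from 129.8 to 140.1; the curve is flat over the first ranks, and Dlx5, at rank 8831, is the last gene detected on all 4 arrays.

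Below these ranks the signal fell steadily. Of the 8577 detected genes, 406 had a mean signal above 10000, 4220 had one above 1000 and 804 had one under 200, with a median of 973. The first gene that missed detection on at least 1 array stood at rank 8152, and the last gene detected on all 4 was Dlx5 at rank 8831.

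Promoters of 4 genes are shown because they represent contrasting start regions among the detected genes. Each runs from 250 bases before to 50 bases after the RefSeq start of the gene, in the GRCm38.p6 build and on the strand of the gene. Ppia (cyclophilin A, rank 16, chr11:6415617-6415916, plus strand) and Prdx1 (a peroxidase, rank 82, chr4:116685349-116685648, plus strand) have high signals and the motif TATAAA. Bglap (osteocalcin, rank 1574, chr3:88384417-88384716, minus strand) is a bone gene with that motif. Hdac2 (a histone deacetylase, rank 402, chr10:36974294-36974593, plus strand) has no TATAAA and many CG pairs. Capitals mark TATAAA in the first 3 sequences and every CG pair in the Hdac2 sequence.
Ppia: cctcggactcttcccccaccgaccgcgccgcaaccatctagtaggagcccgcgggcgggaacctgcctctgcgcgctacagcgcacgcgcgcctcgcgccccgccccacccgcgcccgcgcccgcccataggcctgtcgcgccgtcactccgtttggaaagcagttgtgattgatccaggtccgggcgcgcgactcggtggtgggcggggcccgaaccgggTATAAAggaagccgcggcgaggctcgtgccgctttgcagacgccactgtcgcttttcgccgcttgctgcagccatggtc
Prdx1: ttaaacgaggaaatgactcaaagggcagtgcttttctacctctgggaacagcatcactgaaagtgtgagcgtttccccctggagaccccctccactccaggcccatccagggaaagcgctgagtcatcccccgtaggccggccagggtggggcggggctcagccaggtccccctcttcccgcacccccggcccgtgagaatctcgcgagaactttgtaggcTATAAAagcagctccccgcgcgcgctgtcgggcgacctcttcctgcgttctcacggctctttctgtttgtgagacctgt
Bglap: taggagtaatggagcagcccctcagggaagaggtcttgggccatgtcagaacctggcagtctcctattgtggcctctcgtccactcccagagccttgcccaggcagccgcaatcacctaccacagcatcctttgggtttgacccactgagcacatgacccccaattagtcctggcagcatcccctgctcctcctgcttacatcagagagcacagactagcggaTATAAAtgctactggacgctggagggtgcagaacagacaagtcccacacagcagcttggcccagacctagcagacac
Hdac2: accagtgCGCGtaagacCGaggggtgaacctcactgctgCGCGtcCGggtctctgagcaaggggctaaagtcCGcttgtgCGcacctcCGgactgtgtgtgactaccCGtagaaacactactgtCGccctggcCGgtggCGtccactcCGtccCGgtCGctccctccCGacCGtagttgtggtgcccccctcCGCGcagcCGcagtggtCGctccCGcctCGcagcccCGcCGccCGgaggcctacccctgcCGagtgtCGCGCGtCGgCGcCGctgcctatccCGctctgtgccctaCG

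In Ppia and Prdx1 the motif began 29 bases before the start, and in Bglap it began 27 bases before. The 300 bases of Hdac2 held 36 CG pairs against 4 in Bglap, 43 in Ppia and 19 in Prdx1. A promoter was matched by symbol for 15237 of the 19057 genes, which is 80.0%. TATAAA was searched on the strand of the gene in the 250 bases before the start, and it was found in 20 of 201 promoters of genes at ranks 1 to 250 (9.95%). Among the other detected genes it was found in 255 of 6835 (3.73%), and among all 27025 promoters in the RefSeq table in 2195 (8.12%). Counting only a motif that began 34 to 25 bases before the start, a window added after the data were seen, gave 7 of 201 (3.48%), 56 of 6835 (0.819%) and 515 of 27025 (1.91%). The 7 genes were Ppia, Prdx1, H3f3b, Vim, Srsf2, Igfbp4 and Atp6v1e1. Within the detected genes the CG content differed little with rank. The median ratio of observed to expected CG pairs was 0.795 at ranks 1 to 250 and 0.793 in the other detected genes, and 0.866 in the detected chromatin genes, where 101 of 111 were over 0.6. These are counts of letters in a fixed window and name no factor. The share with TATAAA at ranks 1 to 250 has a 95% Wilson interval of 6.53% to 14.9%. This interval holds the 8.12% of all promoters, a set that includes genes not measured here. It lies above the 3.73% of the other detected genes. Genes are not replicates, and that difference was not tested. The check is void for genes on 0 of 4 arrays and for matrix genes, of which 78.3% and 70.6% had a promoter in the table, and whether detected and undetected genes differ in the motif or in CG content was not tested.

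Among the transcription factors of the osteoblast lineage, 28 of 32 measured were detected. Runx2 had no probe with a single symbol and was not analysed here. Sp7, the osterix gene needed for osteoblast formation, ranked 789 with 6288, 5853, 7185 and 5637 (mean 6241 ± 685, n = 4). Atf4, which directs amino acid supply for matrix synthesis, ranked 226 with 13230, 13659, 16581 and 14011. Cbfb, the partner subunit of Runx proteins, ranked 498 with 8347, 8614, 10240 and 8154. All 3 were highest on array 3, and their ranges did not overlap. Other factors of mesenchyme followed, among them Wwtr1 (rank 1044), a coactivator of the Hippo pathway, the homeobox genes Prrx1 (rank 1077) and Alx4 (rank 2013), and the snail and zinc finger repressors Zeb1 (rank 1396), Snai2 (rank 2560) and Snai1 (rank 2906). Twist1, which holds back Runx2 in early precursors, ranked 3202 with 1504, 1420, 1766 and 1493. The Dlx genes, homeobox factors of the skeleton, lay at the other end of the detected range. Dlx3 ranked 7393, Dlx6 8143 and Dlx5 8831, and the Dlx5 signals of 142, 131, 142 and 132 lay at the detection limit. Runx1 ranked 7522, and Lef1, Msx2, Hand2 and Runx3 were on 0 of 4 arrays.

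**Figure D3:**
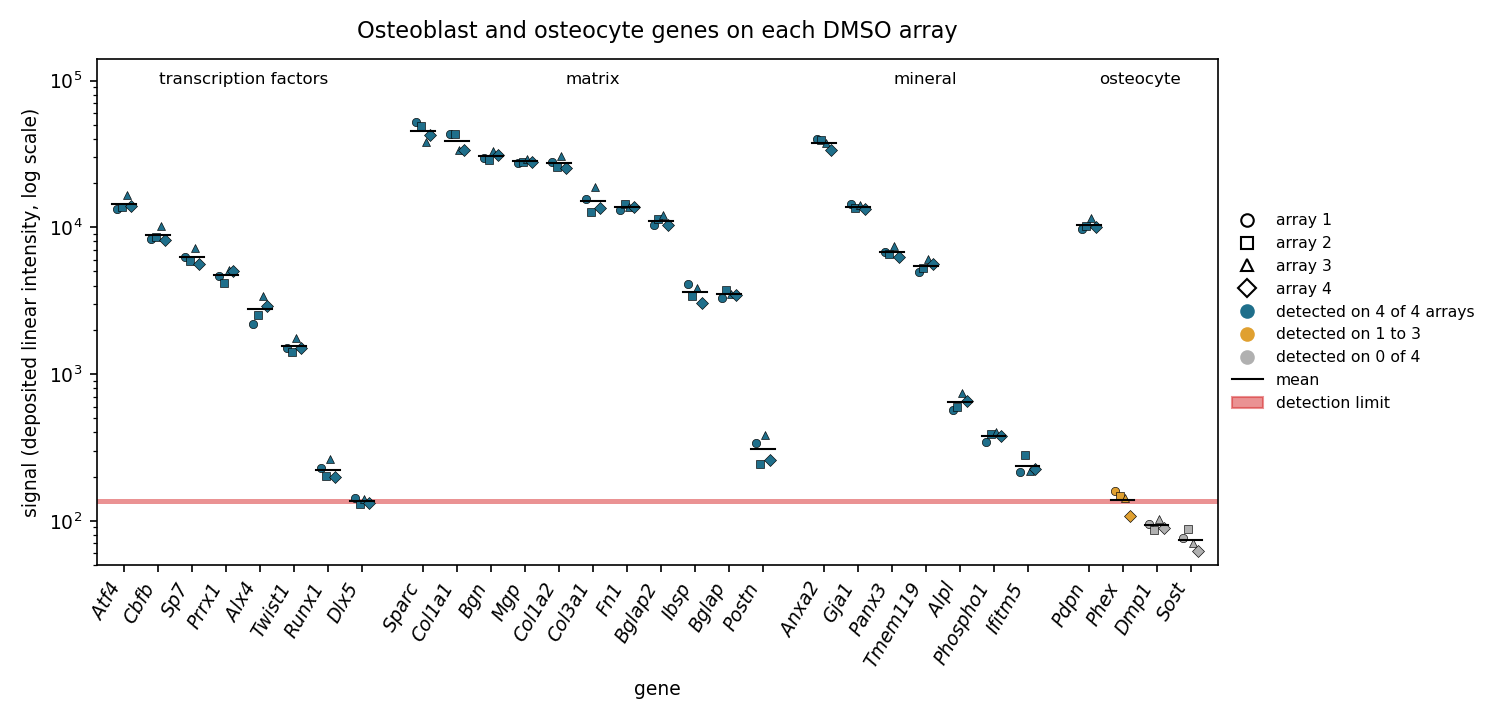
Signals of 30 osteoblast and osteocyte genes on each of the 4 DMSO arrays (vertical axis, deposited linear intensity on a log scale; 1 symbol shape per array, black bar for the mean, colour for the number of arrays on which the gene was detected). The red band is the detection limit of the arrays; type I collagen, Sparc and Mgp sit far above it, Alpl, Phospho1 and Ifitm5 lie below 1000, and Dmp1 and Sost lie under the limit.

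The cell type on the label was checked against 10 osteoblast markers, of which 8 had a probe with a single symbol and all 8 were detected on all 4 arrays. They were Sp7, Alpl, Col1a1, Bglap, Ibsp, Dlx5, Phospho1 and Ifitm5, with ranks from 32 for Col1a1 to 8831 for Dlx5. Runx2 and Spp1 are the other markers and were not analysed here.

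Fibrillar collagens and the enzymes that modify them were detected in 27 of 30 cases, and 0 of 30 were on 0 of 4 arrays. Col1a1, the alpha 1 chain of type I collagen, ranked 32 with 43333, 43307, 33585 and 33744 (mean 38492 ± 5575), and Col1a2, the alpha 2 chain, ranked 77 with 27997, 25747, 30704 and 25224 (mean 27418 ± 2499). The Col1a1 probe was higher on arrays 1 and 2, whereas the Col1a2 probe was highest on array 3, and their ranges did not overlap. Col5a1 ranked 85, Col3a1 ranked 204 and Col5a2 ranked 2321. Col3a1, the chain of type III collagen, varied more than most genes of its level, with 15499, 12664, 18759 and 13498 and an SD of 0.17 on the log2 scale. The probe of Col11a1 was detected on 2 arrays and that of Col11a2 on 1.

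Genes of collagen maturation spanned the whole detected range. Serpinh1 ranked 8 with 46561, 44836, 46791 and 39511 (mean 44425 ± 3390). P4hb, the beta subunit of prolyl 4-hydroxylase, ranked 57 with 30085, 33768, 33884 and 30326, and Lox, which crosslinks collagen, ranked 99. The catalytic subunits of that hydroxylase were dimmer, with P4ha2 at rank 1593, P4ha3 at 5295 and P4ha1 at 7019. The procollagen C-proteinase Bmp1 ranked 1408 and its enhancer Pcolce ranked 237. The lysyl hydroxylases Plod3, Plod2 and Plod1 ranked 592, 2727 and 5572, each with its own probe, so their order is an order of probes.

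Collagens outside the fibrillar class ranged from bright to undetected, with 13 of 24 detected and 11 on 0 of 4. The dimmest detected were Col17a1, Col7a1 and Col4a6, at ranks 7229, 7294 and 7904. Col6a1, of the microfibrils around cells, ranked 41 with 36624, 35399, 35229 and 35800, a CV of 1.74% beside a median of 10.6% over detected genes. Col6a2 ranked 221, Col16a1 229, Col8a1 284 and Col8a2 447. The basement membrane chains Col4a1, Col4a5 and Col4a2 ranked 1426, 1511 and 2108, while Col4a3 and Col4a4 were on 0 of 4 arrays. Col14a1, Col13a1, Col22a1 and Col23a1 were also on 0 of 4.

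Among the bone matrix proteins and proteoglycans 32 of 41 were detected, 8 of them at ranks 1 to 250. The small leucine-rich proteoglycan Bgn ranked 62 with 29591, 28849, 32979 and 30850. Its relatives Dcn, Ogn, Lum, Prelp and Fmod ranked 113, 164, 322, 479 and 660. The relatives Omd and Aspn were also detected but dimmer, with Omd below Bglap (rank 1574) and Aspn between Thbs1 and Postn. Mgp, an inhibitor of calcification, ranked 72 with 27507, 27870, 29289 and 27688 (mean 28089 ± 814), with little spread between arrays. Fn1, the fibronectin gene, ranked 242 with 13188, 14506, 13771 and 13707. Tnc ranked 417 and Thbs2 217, whereas Thbs1 ranked 6545 and Postn, the periostin gene, ranked 6820 with 340, 245, 383 and 260. The Postn values were higher on arrays 1 and 3 than on arrays 2 and 4, without overlap between these pairs. Among genes of elastic fibres and basement membrane, Eln, Fbln1, Fbln5, Efemp1 and Nid1 were on 0 of 4 arrays. Hspg2, Nid2, Fbln2, Mfap4 and Mfap5 of these groups were detected on all 4, and Mfap2 on 1 to 3. Also on 0 of 4 were Vtn, Ecm2 and Kera, a further relative of Bgn.

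The matrix protein genes Ibsp and Bglap, which mark a maturing osteoblast, lay in the upper part of the detected range. Other osteoblast markers lay further down, with Alpl at rank 5252, Phospho1 at 6374 and Dlx5 at 8831. Ibsp, bone sialoprotein, ranked 1507 with 4091, 3416, 3844 and 3039 (mean 3598 ± 466), and its other 2 probes had means from 2096 to 3380. Bglap ranked 1574 with 3277, 3711, 3518 and 3429, but its other probe was on 0 of 4 arrays, with a mean of 114. The near-identical copy Bglap2 ranked 341. Probes of these copies may share transcripts, so the level of each is uncertain. The ranges of Ibsp and Bglap overlapped, and these genes were not ordered by their values.

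For the mineralization genes, 15 of 17 were detected, at ranks from 36 to 7997. The annexins Anxa2, Anxa5 and Anxa6, calcium-binding proteins found in matrix vesicles among other places, ranked 36, 300 and 348. Gja1, the gap junction protein connexin 43, ranked 240 with 14302, 13551, 14124 and 13344, and the channel gene Panx3 ranked 718 with 6756, 6620, 7454 and 6250. The phosphate enzymes had lower signals. Alpl, tissue-nonspecific alkaline phosphatase, which breaks down the mineral inhibitor pyrophosphate, ranked 5252 with 571, 592, 744 and 653 (mean 640 ± 77.6). Phospho1, a phosphatase of matrix vesicles, ranked 6374 with 342, 390, 403 and 380, and the Phospho1 range lay below the Alpl range. Smpd3 ranked 5092, the phosphate carriers Slc20a1 and Slc20a2 ranked 6825 and 7997, and Ifitm5, a small membrane protein of osteoblasts, ranked 7421. The carbonic anhydrase genes Car2 and Car3 were on 0 of 4 arrays.

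Members of the osteocyte list ranged from bright to undetected. Pdpn, which marks the cell as it becomes embedded, ranked 381 with 9718, 10245, 11506 and 10104, Cd44 ranked 343 and Capg 967. Phex, a peptidase that acts on phosphate balance, was detected on 3 arrays, with 159, 147, 144 and 107, and missed detection on array 4. Mepe was detected on 1 array. Dmp1, with 94.6, 86.2, 104 and 89.6, and Sost, with 76.3, 88.5, 70.3 and 61.9, were on 0 of 4, as were Fgf23, Dspp, Dkk1 and Npy. Of 13 members measured, 5 were detected on all 4 arrays.

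Proteases and their inhibitors were detected in 22 of 31 cases. Serpinf1, which encodes the secreted factor PEDF, ranked 21 with 41701, 45454, 37406 and 36524, and Mmp2, gelatinase A, ranked 25 with 38195, 41148, 41214 and 39090. Mmp14, the membrane protease that activates the Mmp2 proenzyme, ranked 202 with 13773, 14923, 15662 and 16210. The inhibitors Timp2, Timp1 and Timp3 ranked 133, 185 and 631, and Timp4 was on 0 of 4. Mmp13, a collagenase of late osteoblasts and hypertrophic chondrocytes, ranked 5762 with 528, 438, 603 and 454. Mmp9 ranked 8016, and Mmp3, Mmp8, Mmp10 and Mmp12 were on 0 of 4. Because the cells were digested with collagenase before harvest, these levels describe cells after that step, and its part in them was not tested.

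Receptors for the matrix followed, with 19 of 33 detected. Itga11, an alpha chain of a collagen-binding integrin, ranked 308 with 11510, 11318, 14305 and 11505, and Sdc2, a heparan sulfate proteoglycan of the surface, ranked 310 with 11877, 11786, 12677 and 11978. These ranges overlapped. Cd44, the hyaluronan receptor, ranked 343, Sdc3 355 and Itgb5 537, whereas Itgb1, the partner of most alpha chains, ranked 5101. Itga2, Itga6, Itgb3 and Itgb8 were on 0 of 4 arrays. Of the cadherins, Cdh11, known from osteoblasts, ranked 7735 with 211, 201, 217 and 183, and both Cdh2, the N-cadherin gene, and Cdh1, the E-cadherin gene, were on 0 of 4. The signals of the brightest Cdh2 probe were 107, 98.2, 137 and 116.

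Of hormone and nuclear receptors 15 of 37 were detected, a share of 40.5% against 45.0% of all genes. Pth1r, the receptor of parathyroid hormone, ranked 1311 with 3596, 3754, 4538 and 4241 (mean 4032 ± 435). Ghr, the growth hormone receptor, ranked 1334 with 3946, 3699, 4657 and 3623, and overlapped Pth1r. The vitamin D receptor gene Vdr ranked 4259 with 876, 919, 1125 and 1019, and Esr1, the estrogen receptor alpha gene, ranked 7369 with 239, 210, 290 and 227. Only the brightest of the 4 Esr1 probes was detected. Igf1r ranked 4207 and the insulin receptor gene Insr 4544. Nr3c1, the glucocorticoid receptor gene, had 125, 115, 119 and 115 on its only probe and was on 0 of 4, under a detection limit of 129.8 to 140.1. Calcr, Casr, Pparg and Rara were also on 0 of 4.

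G protein coupled receptors of bone were detected in 8 of 27 cases (29.6%). The thrombin receptor gene F2r ranked 875 with 5546, 5181, 6643 and 5469, and receptors for lysophosphatidic acid and sphingosine 1-phosphate followed, with Lpar4 at 1108, S1pr2 at 1600 and Lpar1 at 1977. The prostaglandin receptor genes Ptger2, Ptger3 and Ptger4, the chemokine receptor gene Cxcr4, and Lgr4, Lgr5 and Lgr6, which bind R-spondins, were on 0 of 4 arrays. Cytokine receptors were detected in 14 of 26 cases, led by Tnfrsf12a at rank 886 and Il17rc at rank 1263. The shared signal chain Il6st ranked 5229 and Lifr ranked 7049, while Il6ra and Epor were on 0 of 4.

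**Figure D4:**
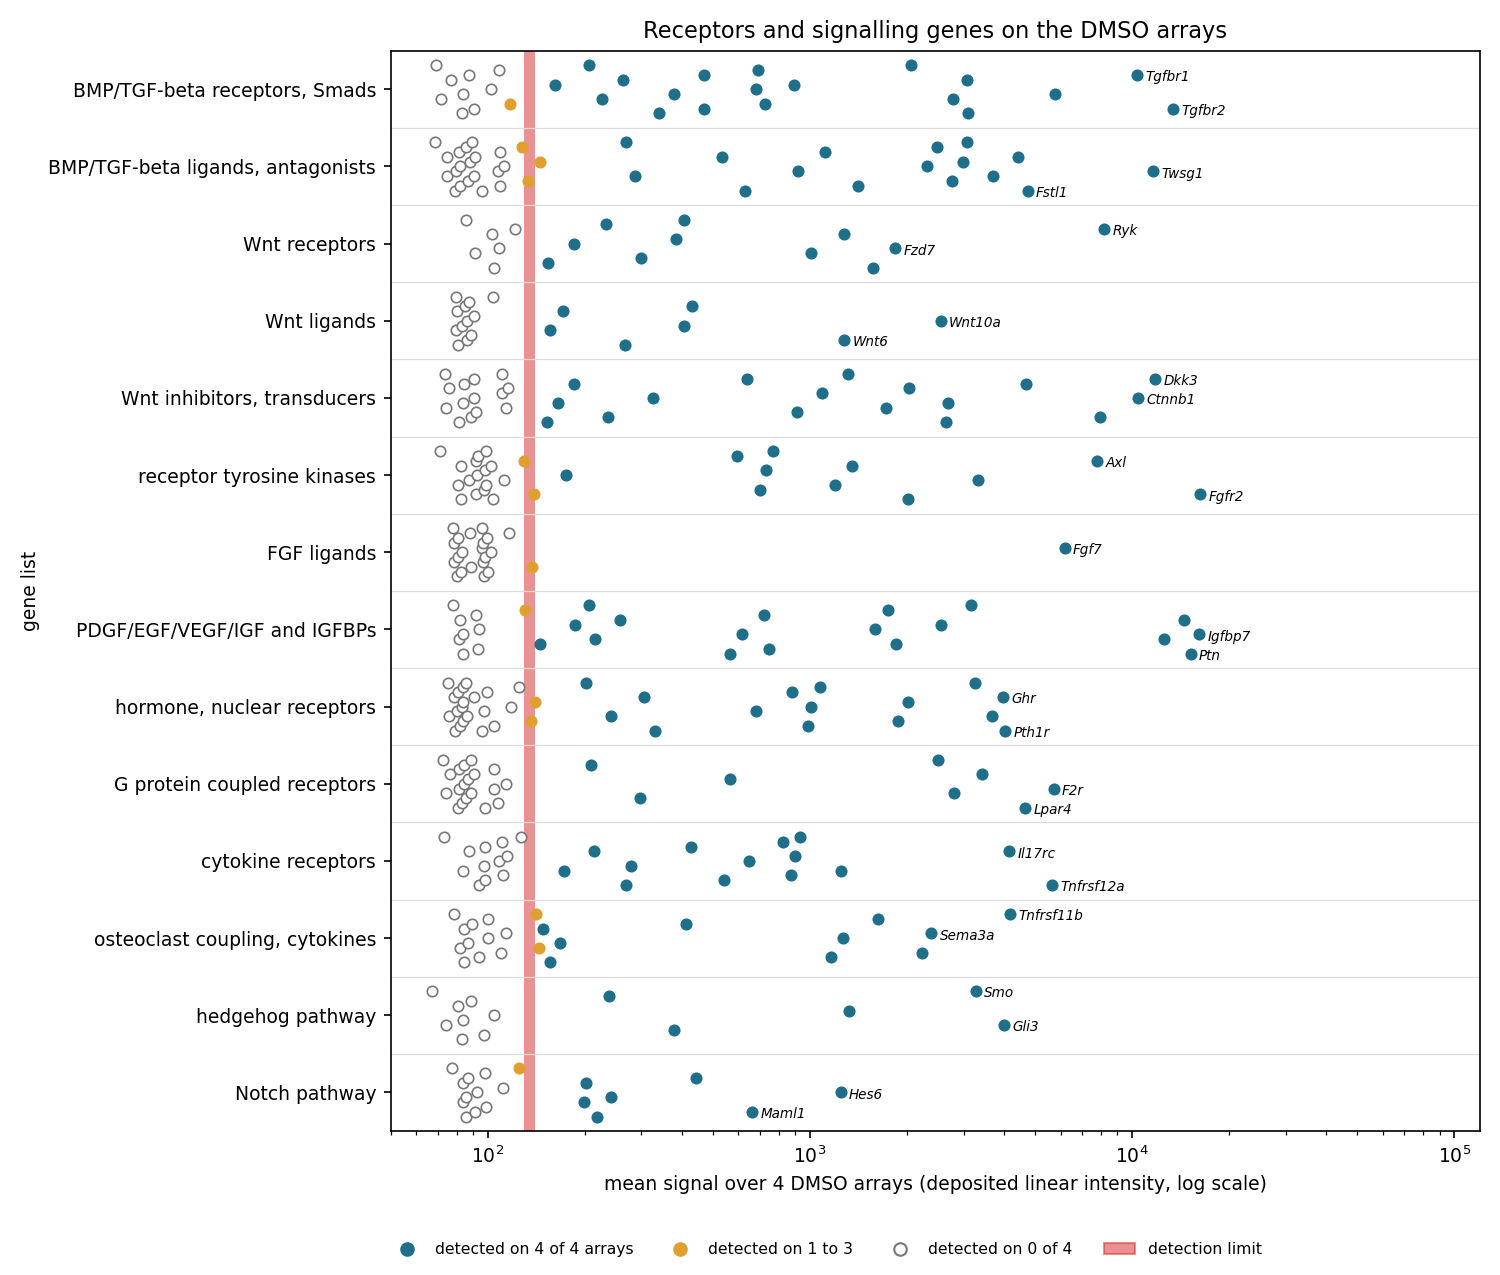
Mean signal over the 4 DMSO arrays (horizontal axis, deposited linear intensity on a log scale) of each measured member of 14 receptor and signalling lists (vertical axis; the vertical position inside a list carries no value). Filled blue points were detected on 4 of 4 arrays, orange on 1 to 3 and open points on 0 of 4, the red band is the detection limit, and the 2 brightest detected members of each list are named where there are 2; Fgf7 is the FGF ligand that was detected on all 4.

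The brightest probe of the BMP and TGF-beta family was that of a receptor. Tgfbr2 and Tgfbr1, the subunits of the TGF-beta receptor, ranked 263 and 382, with 13343, 13178, 14377 and 12764 for Tgfbr2 and 10319, 9700, 11385 and 10049 for Tgfbr1. Their ranges did not overlap. Of the BMP receptors, Bmpr2 ranked 872 and Bmpr1a ranked 1787 with 3121, 2677, 3888 and 2656, and Bmpr1b was on 0 of 4. The BMP signal carriers Smad1 and Smad5 ranked 2583 and 4510, and Smad3 of the TGF-beta branch ranked 2000. The BMP target Id1 ranked 8280, last of the detected members, with a mean signal of 162. Its relatives Id2, Id3 and Id4 were also detected and ranked above it. In all, 19 of 29 receptors and Smads were detected.

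Ligands and antagonists of that family were detected in 16 of 38 cases (42.1%). Twsg1, which binds BMPs outside the cell, ranked 320 with 11692, 11116, 12705 and 11027. The follistatin-like gene Fstl1 ranked 1081, the activin subunit gene Inhba 1459, the activin antagonist gene Fst 1840 and the BMP antagonist gene Grem1 2205. Bmp4 ranked 1797 with 2894, 3008, 3474 and 2904 (mean 3070 ± 274), and Tgfb1 ranked 2021 with 2078, 2792, 3073 and 3060. Array 1 was the lowest for Tgfb1. Bmp2, a ligand that drives bone formation, had 85.0, 73.6, 78.3 and 80.2 and was on 0 of 4, and so were Bmp3, Bmp6, Bmp7 and the antagonist gene Nog.

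Wnt receptors were detected in 11 of 17 cases and Wnt ligands in 7 of 19, and at a detection p under 0.001 these counts were 7 and 4. Ryk, a receptor with an inactive kinase, ranked 542, and the frizzled genes Fzd7 and Fzd5 ranked 2829 and 3167. The coreceptor genes Lrp5 and Lrp6 lay near the limit, at ranks 7439 and 7952, with 219, 227, 288 and 201 for Lrp5 and 176, 171, 201 and 193 for Lrp6, and these ranges overlapped by less than 1 unit. Wnt10a was the brightest ligand, at rank 2161 with 2273, 2566, 2822 and 2512, followed by Wnt6 at 3626 and Wnt10b, a ligand known to favour bone over fat, at 6099 with 443, 394, 459 and 431. Wnt5a ranked 7151. Wnt1, Wnt3a, Wnt7a and Wnt16 were among the 12 ligands on 0 of 4 arrays. In the cell, Ctnnb1, the beta-catenin gene, ranked 376 with 10790, 10817, 10928 and 9291, and the transcription factor gene Tcf7l1 ranked 563. The secreted inhibitor genes Dkk3 and Sfrp2 ranked 316 and 2094, and Wif1 ranked 6692, whereas Dkk1, Sost, Sfrp1 and Frzb were on 0 of 4.

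Signals were uneven within the FGF receptors and within the FGF ligands. Fgfr2 ranked 176, highest of 29 receptor tyrosine kinases, with 16729, 15353, 17873 and 15171 (mean 16282 ± 1269). Fgfr1 ranked 5397 with 584, 624, 576 and 592, Fgfr3 ranked 8085, and Fgfr4 was on 0 of 4 arrays. The Fgfr2 value rests on the brightest of 4 probes, since the others had means from 90.9 to 877. Of 22 FGF ligands 1 was detected on all 4 arrays. It was Fgf7, which acts through an epithelial isoform of Fgfr2, at rank 806 with 5890, 5458, 7378 and 5955. Fgf18 was detected on 3 arrays, with 148, 116, 141 and 145, and Fgf2, with 85.2, 80.6, 81.5 and 76.0, was on 0 of 4. The array signals do not separate isoforms.

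Of the other kinase receptors, Axl ranked 578 and Flt1, a VEGF receptor, 1659. Pdgfra ranked 2631 with 1933, 1842, 2430 and 1845, and Pdgfrb ranked 3773 with 1191, 1040, 1432 and 1135. Kdr, Kit, Met, Ret and the neurotrophin receptor gene Ntrk2 were on 0 of 4. Among the growth factors 18 of 27 were detected. The IGF binding protein genes Igfbp7 and Igfbp4 ranked 179 and 224, the heparin-binding factor gene Ptn ranked 199 and Pdgfa ranked 292. Igf1 ranked 2817 with 1735, 1722, 2063 and 1857, above Igf2 at rank 4916 with 675, 743, 817 and 751, and their ranges did not overlap. The 4 other Igfbp7 probes were on 0 of 4 arrays, with means from 64.1 to 77.6.

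Hedgehog genes were detected in 5 of 13 cases (38.5%) and Notch genes in 7 of 19 (36.8%), beside 45.0% of all genes. At a detection p under 0.001 the 7 Notch genes became 3. Gli3 and Smo, a transcription factor and the signal transducer of the hedgehog pathway, ranked 1324 and 1689, and the receptor gene Ptch1, itself a target of the pathway, ranked 7391. The ligand genes Shh, Ihh and Dhh, and the factors Gli1 and Gli2, were on 0 of 4. Notch1 ranked 6031 with 449, 409, 475 and 439, Notch3 and Notch4 ranked 7787 and 7753, and Notch2 was on 0 of 4 with 92.2, 80.1, 81.5 and 88.2. The brightest Notch pathway genes were Hes6 and Maml1, at ranks 3695 and 5173, whereas the target Hes1 ranked 7367 and the ligand gene Jag1 7560.

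Osteoblasts control osteoclasts through secreted factors. Tnfrsf11b, osteoprotegerin, which blocks the osteoclast factor RANKL, ranked 1251 with 4618, 3492, 5157 and 3495 (mean 4190 ± 835). Arrays 1 and 3 were higher than arrays 2 and 4, and the SD on the log2 scale was 0.23. Tnfsf11, the gene of RANKL itself, had 131, 109, 114 and 104 on its only probe and was on 0 of 4. The macrophage growth factor gene Csf1 ranked 3836 with 911, 1081, 1411 and 1264, and the chemokine gene Cxcl12 ranked 3643. Il6, Lif, Tnf, Il1b and Ptgs2, which encodes the inducible cyclooxygenase, were on 0 of 4.

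Zinc-dependent deacetylases, the enzyme family that SAHA targets, and their corepressors were widely detected in these cells, which were given no drug. Of 18 zinc-dependent deacetylases and corepressors measured, 17 were detected, and Hdac9 was on 0 of 4. The corepressors in this count, such as Sin3a, Rcor1 and Mta2, are not deacetylases. Hdac2, a class I enzyme, ranked 402 with 9960, 9957, 10913 and 9615 (mean 10111 ± 558), Hdac3 of the same class ranked 1260 with 4115, 3917, 4708 and 3918, and Hdac8 ranked 6982. The class II genes Hdac5, Hdac7, Hdac4 and Hdac6 ranked 1440, 4931, 5663 and 7725. Hdac6, the cytoplasmic enzyme that acts on tubulin, had 213, 200, 217 and 185. The ranges of Hdac2, Hdac3, Hdac4 and Hdac6 did not overlap. Hdac1 had no probe with a single symbol and was not analysed here. All 7 sirtuins, which need NAD and are not targets of SAHA, were detected, from Sirt7 at rank 1304 to Sirt6 at 8251.

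Acetyltransferases and bromodomain proteins were detected in 15 of 21 cases. Hat1 ranked 448 with 9343, 9300, 10232 and 8859, Brd2, which reads acetylated histones, ranked 541 with 8251, 7515, 8985 and 8210, and Brd3 ranked 1157. The coactivator genes Kat2a, Ep300 and Crebbp ranked 4640, 4664 and 6881. Ep300, with 951, 672, 957 and 765, was lower on arrays 2 and 4. Kat6a, Brd1, Ncoa1 and Ncoa3 were on 0 of 4.

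Histone methyltransferases were detected in 30 of 36 cases. Prmt1, the main arginine methyltransferase, ranked 336 with 10139, 11139, 12707 and 10936, and Suz12, a subunit of Polycomb complex 2, ranked 734. The study's title names histone H4, and the enzymes that methylate lysine 20 of that histone were all detected. Kmt5b ranked 2962 with 1695, 1590, 1995 and 1627, Kmt5a ranked 3531 with 1182, 1251, 1656 and 1259, and Kmt5c ranked 4782 with 732, 794, 865 and 765. Kmt5a and Kmt5b overlapped, and both lay above Kmt5c. Ezh2, the catalytic subunit of Polycomb complex 2, ranked 5211 and Ezh1 was on 0 of 4. Of histone demethylases 16 of 20 were detected, led by Jmjd6 at rank 1241, Kdm2a at 2036 and Kdm1a at 2128. Dnmt1, which maintains DNA methylation, ranked 2944 with 1553, 1503, 2133 and 1777, its cofactor gene Uhrf1 ranked 659, and Dnmt3a was on 0 of 4 while Dnmt3b ranked 4579.

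Remodelling and Polycomb genes were detected in 32 of 35 cases. Of the alternative motors of the BAF complex, the Smarca2 probe ranked 590 with 7097, 7472, 8910 and 7189, and the Smarca4 probe ranked 5540 with 467, 534, 633 and 588. The Smarca2 value rests on its brightest probe, since the highest of the other 4 had a mean of 221. Linker and variant histone genes were detected in 10 of 18 cases. Cenpa, the histone H3 variant of centromeres, ranked 76 with 26451, 26109, 29699 and 27694, and its other probe had a mean of 252. H3f3b ranked 121 and H3f3a 657, genes for the same replacement histone H3.3, and the linker histone gene H1f2 ranked 843. Histone genes are close copies of each other, so their probes may share transcripts.

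The cell cycle list had 27 of 34 members detected. Ccnd1, the D-type cyclin of the G1 phase, ranked 135 with 17610, 17756, 20264 and 17452 (mean 18270 ± 1335), and Ccnd2 ranked 583. Among genes of S phase and mitosis, Cdc20 ranked 855, Plk1 1225, Tk1 1231, Cdk1 1766, Aurka 1784 and Top2a 2596. Not all were detected, since Bub1 and Ccnb2 were on 0 of 4 and Ccne2 was detected on 1 to 3 arrays. The inhibitor gene Cdkn1a ranked 791 with 5535, 6048, 7112 and 6235, whereas Cdkn2a, Cdkn2b and Cdkn1c were on 0 of 4. Immediate-early and stress genes were detected in 22 of 26 cases. Ier3 ranked 649 and Egr1 2960. Fos ranked 7012 with 256, 375, 282 and 223, which was highest on array 2, and Hspa1a, a heat shock gene, was on 0 of 4.

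Markers of other cell types were mostly on 0 of 4, with 94 of 124 so called. All 10 adipocyte markers, among them Pparg, Cebpa, Adipoq and Fabp4, all 7 erythroid and all 10 hepatocyte markers were on 0 of 4. Of 10 endothelial markers 9 were on 0 of 4, Pecam1, Kdr and Cdh5 among them, and Egfl7 was detected on 2 arrays. The leukocyte gene Ptprc, with 83.8, 77.4, 86.6 and 81.2, and the osteoclast genes Acp5, Calcr, Dcstamp and Ocstamp were on 0 of 4. Ctsk, the collagen-degrading protease best known from osteoclasts, ranked 196 with 13972, 15172, 17442 and 14938. It was thus bright while Acp5, Calcr, Dcstamp and Ocstamp were undetected. In the same list, Csf1r and Cd3e were detected on 1 to 3 arrays. Lyz2 and Cd14 ranked 6752 and 7063.

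**Figure D5:**
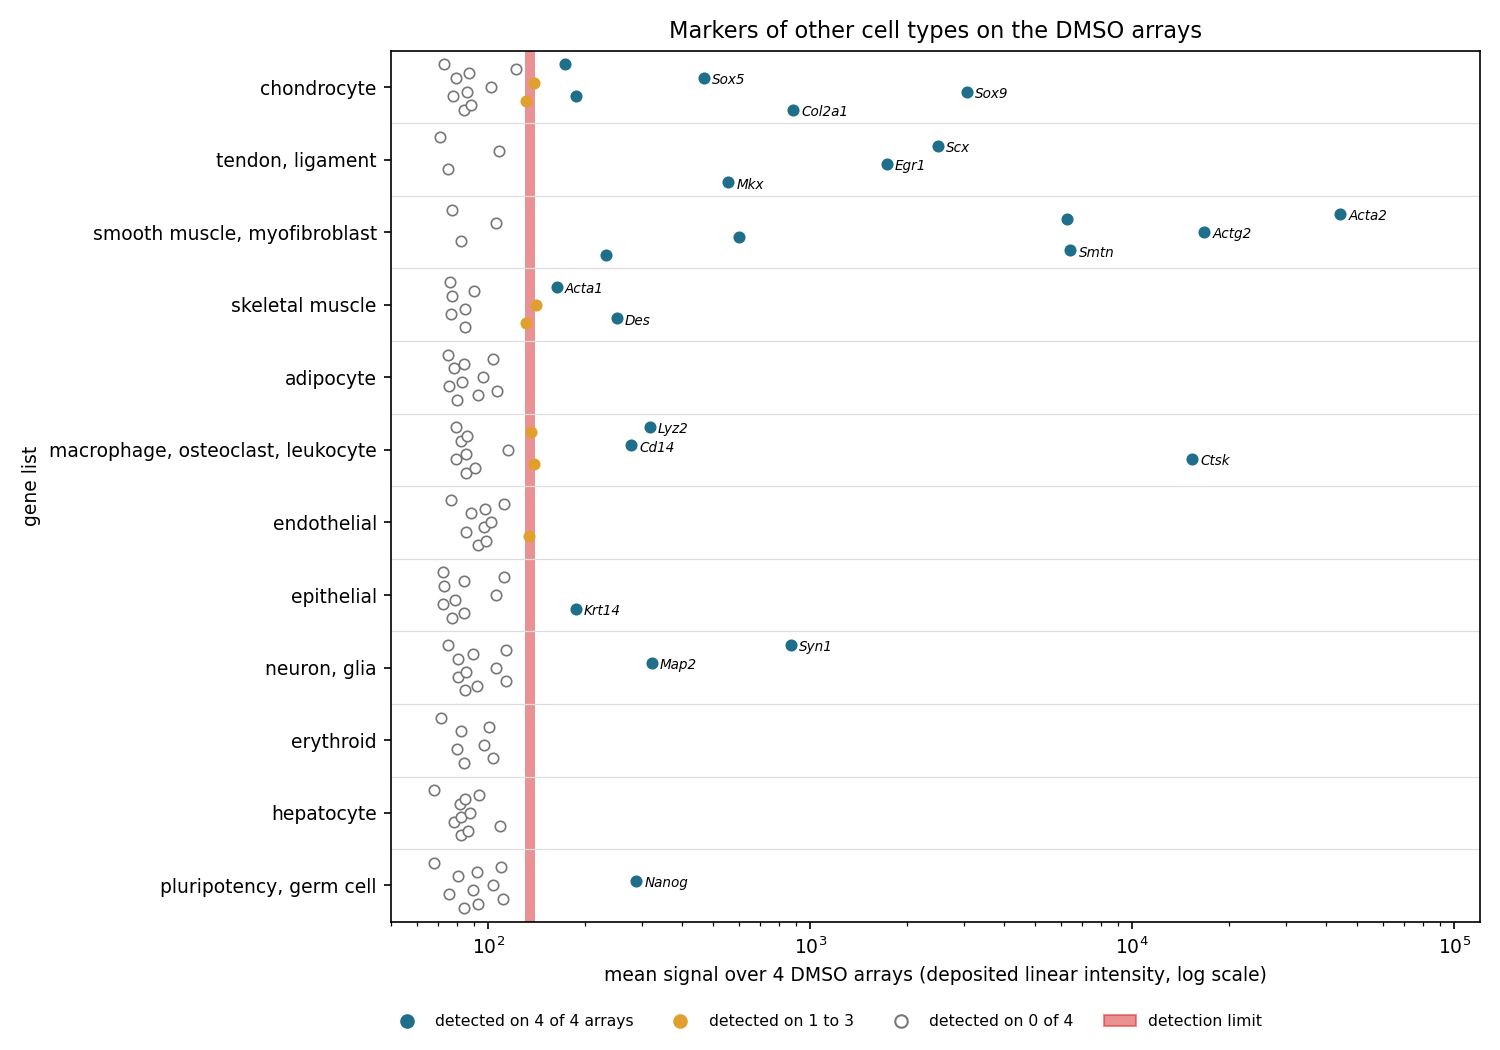
Mean signal over the 4 DMSO arrays (horizontal axis, deposited linear intensity on a log scale) of each measured marker of 12 other cell types (vertical axis; position inside a type carries no value). Filled blue points were detected on 4 of 4 arrays, orange on 1 to 3 and open points on 0 of 4, the red band is the detection limit, and up to 3 of the brightest detected markers are named; Acta2, Actg2 and Ctsk are the markers above 10000.

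The neighbouring lineages of mesenchyme gave mixed calls. Of 9 smooth muscle and myofibroblast markers 6 were detected. Acta2 ranked 10 with 46953, 48615, 40823 and 40810, Actg2 ranked 160, and Smtn and Mylk ranked 764 and 782, while Tagln ranked 5370. Myh11, Cnn1 and Myocd, the contractile and regulatory genes that mark mature smooth muscle, were on 0 of 4. Chondrocyte markers were detected in 5 of 16 cases, which became 8 at a detection p under 0.05 and 3 at 0.001. Sox9, which is also active in precursors common to cartilage and bone, ranked 1807 with 2649, 2842, 3702 and 3040, and Col2a1, the type II collagen of cartilage, ranked 4531 with 856, 792, 930 and 956. Acan, with 84.9, 79.6, 104 and 84.8, the Col9 genes, Matn1 and Col10a1 were on 0 of 4. Of 6 tendon markers 3 were detected, with Scx, the scleraxis gene, at rank 2208 with 2143, 2295, 2910 and 2595, and Tnmd on 0 of 4. Des and Acta1 were the genes detected on all 4 arrays of 10 skeletal muscle markers, at ranks 7286 and 8265. Mylpf and Myog were detected on 1 to 3 arrays, and Myod1 was on 0 of 4.

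A few markers of distant cell types were detected, with mean signals under the median of 973 for detected genes, and Syn1 was the brightest of them. Syn1, a synapse gene, ranked 4575 with 796, 791, 968 and 926, and its other probe had a mean of 704. Map2 ranked 6718, but 8 of its 9 probes were on 0 of 4. Nanog ranked 6986 with 290, 239, 334 and 286 on 1 of its 2 probes, whereas Pou5f1 and Sox2 were on 0 of 4. Krt14 ranked 7934, near the limit, and the other 9 epithelial markers, Epcam, Krt8 and Krt18 among them, were on 0 of 4.

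The choice of probe moved ranks more than the choice of array did. Over 182 detected genes selected by the rule given below, taking the dimmest probe in place of the brightest shifted ranks by a median of 2557.5. The median shift was 10.0 to 18.5 when an array was left out. Of 9172 genes with more than 1 probe, 5269 had a probe detected on all 4 arrays, and 3166 of these (60.1%) also had a probe on 0 of 4. Where at least 2 probes were detected on all 4, the brightest was a median of 2.93 times as bright as the dimmest, and more than 10 times in 534 of 3100 genes (17.2%). Rpl37 at rank 11 has 2 other probes with means of 92.2 and 114, and Tubb5 at rank 17 has another with a mean of 112. Sparc, by contrast, had 3 detected probes, the others with means of 13151 and 31802.

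The genes with the largest spread between arrays had mostly low signals. Of the 10 detected genes with the largest log2 SD and a mean signal over 200, Afap1, an actin filament protein, came first with an SD of 0.55 and signals of 150, 209, 259 and 251. Cct5, a chaperonin subunit, followed with 0.50 and signals of 348, 288, 387 and 201, and the mitochondrially encoded genes ND5 and ND4L had 0.48 and 0.45. The ND4L signals of 915, 599, 1277 and 620 were higher on arrays 1 and 3, while the ND5 signals of 243, 416, 332 and 359 were lowest on array 1. Hsd3b2 was the brightest of the 10, at rank 1385, with 4936, 3193, 4573 and 2770, again higher on arrays 1 and 3. Fos, Luc7l2, Atg4b, Enah and Rnf126 complete this set.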

How the data were processed

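Per the file headers, the table that the authors deposited without normalization holds a linear intensity for each probe and array of the Illumina BeadChip, and the deposited detection p-value of each probe stands beside it. The scanner software and its settings are not given in the sources used here. A second table of normalized intensity values was deposited by the authors, its method not given in the sources used here, and served as an alternative. Its replicate numbers are not carried by the first table, so arrays are named by number.

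Probes were paired with genes through platform annotation updated with RefSeq. Of 45281 probes 34885 had 1 symbol, 18 several and 10378 none, and those with 1 symbol gave 19057 genes. Each gene was represented by its probe with the highest mean, ranked on the deposited scale. Spread was taken after neqc of limma 3.58.1 in R 4.3.3 with an offset of 16, which shrinks log2 differences of dim genes, on the 4 DMSO arrays alone. Python 3.11.15 with pandas 2.3.3 did the counting. With 1 group no test was made, and the number of arrays limits the precision. Call rules were checked on simulated data.

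Members and 47 gene lists were chosen with earlier results of these data known. Genes were named by rule: the 20 highest, the 3 brightest of each list, 87 genes fixed by name, of which 80 were measured, and the 10 with the largest spread, beside any list member by call and rank. Alternatives covered the detection threshold, the probe standing for a gene, normalization, the average, each array left out, the rank class and the motif.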

Additional observations from a re-analysis of the deposited data

Results flagged for a closer look

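For 10 of the 182 detected genes selected by rule (5.49%), 1 array lay far from the other 3 on the log2 scale after normalization. Its gap to the nearest array, as a share of the gene's whole range, exceeded Dixon's critical value for 4 samples. Over all 8577 detected genes the share was 403 (4.7%), and chance gives about 1 in 20. Array 1 stood apart for Ezh2, with a ratio of gap to range of 0.88 and log2 values of 9.44, 9.09, 9.12 and 9.07 on arrays 1 to 4. Array 1 was also the far array for Ctsk (0.872, the lowest there), Twsg1 (0.859), H3f3b (0.854) and Fgfr2 (0.847), whose log2 SDs were between 0.045 and 0.065. Array 2 was the far and lowest array for Nanog (0.903) and for the tendon factor gene Mkx (0.891). Array 4 was the far and highest array for Syn1 (0.915) and Rps2 (0.833), and array 3 was the lowest for Flt1 (0.853), with log2 values of 11.76, 11.72, 11.50 and 11.73.

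Probes without a gene symbol were used in no list. Of 10378 such probes, 1990 (19.2%) were detected on all 4 arrays, against 12910 of the 34885 probes with 1 symbol (37.0%), and 161 of the 1990 had a mean signal above 10000. The brightest of them had 51184, 50729, 44753 and 42492 on arrays 1 to 4, which is the level of the gene at rank 1.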

How the results depend on the processing

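Counts over all genes and over all list genes moved by less than 1.5 times with the detection threshold, while counts of single lists moved more. At a detection p under 0.05, 9162 genes were detected on all 4 arrays and 8634 on none, and at 0.001 these counts were 6708 and 11785. The genes of the lists detected on all 4 were 555, then 583 and 439. Of the 47 lists, 9 moved by over 1.5 times in the number detected and 12 in the number on no array at 0.001, and 5 and 4 did so at 0.05. At 0.001, osteoblast factors on no array went from 4 to 9, fibrillar collagen genes from 0 to 4, and remodelling and Polycomb genes from 2 to 7. Detected macrophage, osteoclast and leukocyte markers were 3, and 5 at 0.05 or without array 1, detected FGF ligands were 1, and 2 at 0.05 or without array 2, and fibrillar collagen genes on no array were 2 without array 1. With each array left out in turn, 8600 to 8659 genes were detected on the other 3, 9840 to 9870 on none, 555 to 560 list genes were detected, and 244 to 248 of the 250 highest genes stayed among the 250 highest. Restricting the count to genes with 1 probe left 3308 detected genes, 6270 on none and 210 detected list genes, since that leaves fewer genes.

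Of the 250 highest genes 249 or 250 remained with the normalized values or median scaling, 244 with the median over arrays, 191 with the mean over a gene's probes and 136 with its dimmest probe. Of the 182 detected genes selected by rule, 160 moved by over 1.5 times in rank with the dimmest probe. The median log2 SD of 0.097 became 0.151 on the deposited signals, 0.119 with median scaling and 0.086 on the authors' normalized values, which come from a table of all 12 arrays made by a method not given in the sources used here. The share of promoters with TATAAA at ranks 1 to 250, 9.95%, became 6.06% at ranks 1 to 1000, 6.58% at ranks 1 to 100, 14.9% for TATAA with any last base, and 3.48% in the window 34 to 25 bases before the start, an alternative chosen after seeing the data.

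No paired analysis was possible because a single group was described with no test, and the columns of the table used carry no replicate numbers. Protein features were not run, since no protein sequences were at hand. Signals under an array's detection limit, 129.8 to 140.1, cannot be told from background.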

Other observations

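Gene families outside the lists, chosen after the data were seen, spanned the whole range of calls. Of 33 subunits of NADH dehydrogenase in the mitochondrial respiratory chain 32 were detected on all 4 arrays (97.0%), with a median mean signal of 7105. Mitochondrial ribosomal proteins stood at 72 of 76 (94.7%), aminoacyl-tRNA synthetases, which charge tRNAs for translation, at 27 of 32 (84.4%), and proteasome subunits at 41 of 49 (83.7%). Families of sensory cells lay at the other end. Of 1078 olfactory receptors 2 were detected on all 4, Olfr724 and Olfr748, with 10 more on 1 to 3 arrays, and of 173 vomeronasal receptors 1 was detected, Vmn1r65. Taste receptors stood at 0 of 35 and Pax genes, developmental transcription factors, at 0 of 9. Potassium channels were detected in 8 of 88 cases (9.09%) and cytochrome P450 genes in 10 of 86 (11.6%).

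Hox genes, which set position along the body axis, were detected in 6 of 38 cases (15.8%). The 6 were Hoxa5, Hoxa7, Hoxb5, Hoxc6, Hoxa2 and Hoxa13, with a median mean signal of 240. Of keratins, Krt10 and Krt14 were detected among 45. The zinc finger genes named Zfp were detected in 172 of 331 cases (52.0%) at a median mean signal of 411, and solute carriers in 122 of 327 (37.3%).

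By chromosome, the share of genes detected on all 4 arrays ran from 34.2% of 710 genes on chromosome X and 36.7% of 1688 on chromosome 7 to 51.9% of 1103 on chromosome 5. Of the 250 highest genes, 27 lay on chromosome 11, which holds Sparc, Col1a1 and Serpinf1, and 23 each on chromosomes 6 and 10. These chromosomes had 1485, 1029 and 885 genes measured, of 19057 in all. Chromosomes 7 and 2, with 1688 and 1633 genes measured, held 20 and 15 of the 250. Whether the chromosomes differ was not tested.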
